A study of Homo sapiens with 4 samples.

Results

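The genes that encode the subunits of the SWI/SNF chromatin remodeller were examined for binding of Flag-tagged FLI1. They were 31 genes, taken by their GENCODE symbols from the 20033 protein-coding genes of the nuclear chromosomes. A gene had a promoter peak where a deposited peak overlapped the 3 kb either side of any of its annotated transcription start sites (TSSs), and a gene-body peak where a peak overlapped the gene outside those windows. The cells were HK1, an established nasopharyngeal carcinoma line, and the cells of both conditions overexpressed Flag-FLI1. Treatment was for 24 h, with PBS in the control and IFN-γ in the other condition. The immunoprecipitation was against Flag and therefore measured the introduced protein, not the FLI1 that the cells make themselves. With 1 ChIP library per condition and no replicates, no effect of IFN-γ could be tested. The input libraries were not analysed here. No expression was measured in these libraries, so the labelled cell line could not be checked against marker genes, and a site bound in few cells cannot be told apart from a site weakly bound in many.

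SWI/SNF complexes use the energy of ATP to slide or evict nucleosomes and so open DNA to other proteins. A catalytic ATPase sits with an actin-related module on a core of scaffold subunits, and the subunits added to that base define the canonical BAF, PBAF and non-canonical BAF complexes. Several positions can be filled by alternative paralogues, some of which belong to neurons. FLI1 is an ETS-family transcription factor, and ETS proteins bind DNA around the core GGAA. Fusion proteins that hold the FLI1 DNA-binding domain also bind tandem repeats of that core.

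The control list held 30819 peaks and the IFN-γ list 39654 peaks. Fold enrichment is the height of a peak's summit over its local background, as the authors' peak caller gave it. The fragments at each summit (the pileup) were counted back from the fold enrichment and the −log10 p, with a median of 16 fragments in the control library and 22 after IFN-γ. The IFN-γ library was 1.46 times as deep, as judged by the lowest background of each list. The lowest −log10 q in the lists was 1.30 and 1.32. A gene without a peak had none in the deposited list, and its promoter may still have been bound.

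The DNA at the most strongly bound promoter and at the promoters with a large ratio between the libraries is shown first, because it holds GGAA cores within 100 bp of the summits described below. *BCL7C*, which also had a large ratio, had no GGAA core within 100 bp of its summit and is not shown. Sequences are from GRCh38, written 5′ to 3′ on the strand of the gene, and each stretch is a part of the 201 bp around the control summit, chosen to hold a core and not always the summit itself. Capitals mark the octamer CAGGAAGT (read here on the opposite strand) in *BRD9*, and the core GGAA or its reverse complement TTCC in the others. The stretches are *BRD9* chr5:892802-892849 (minus strand), *SMARCA4* chr19:10960854-10960931 (plus), *SMARCD2* chr17:63842800-63842829 (minus), *SMARCD3* chr7:151277221-151277249 (minus), *SS18L1* chr20:62143120-62143200 (plus), *PBRM1* chr3:52685583-52685693 (minus) and *BRD7* chr16:50368819-50368848 (minus). Those of *SMARCD2*, *SMARCD3* and *BRD7* lie in annotated untranslated exon sequence of at least 1 transcript.
BRD9: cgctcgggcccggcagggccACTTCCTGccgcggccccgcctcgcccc
SMARCA4: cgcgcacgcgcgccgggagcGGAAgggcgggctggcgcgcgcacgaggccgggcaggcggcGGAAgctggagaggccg
SMARCD2: cgaacttggattaGGAAatcccggagcccg
SMARCD3: atggggcgacgcTTCCtgctccggtccct
SS18L1: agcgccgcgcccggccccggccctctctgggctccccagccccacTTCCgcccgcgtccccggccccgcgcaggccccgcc
PBRM1: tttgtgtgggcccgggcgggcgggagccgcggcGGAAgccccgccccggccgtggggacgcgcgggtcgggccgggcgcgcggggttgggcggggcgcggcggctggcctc
BRD7: cctggcccggaccGGAAgcggcgccgcacg

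Nearly every subunit gene had a Flag-FLI1 promoter peak in the deposited lists. A promoter peak was found for 29 of the 31 genes (93.5%) in the control library, beside 61.9% of all coding genes. The IFN-γ count was 28 of 31 (90.3%), beside 59.7% of coding genes. Promoter peaks of both libraries overlapped by at least 1 bp for 27 genes (87.1%), beside 54.9%. The subunit genes have more annotated start sites than other genes, with a median of 13 against 5, which gives them more promoter windows. With 1 start site per gene the counts were 28 and 27 of 31, beside 57.4% and 54.1% of coding genes.

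The exceptions were *ACTL6B*, *DPF2*, *BCL7A* and *BCL11A*. *ACTL6B*, the actin-related subunit of post-mitotic neurons, had no promoter peak in either library, and the nearest control and IFN-γ peaks lay 16.9 and 17.1 kb from its start sites. *DPF2* had a peak in the IFN-γ library alone, of 16 fragments and 2.85-fold enrichment, which ranked 38161 in its list. *BCL7A* and *BCL11A* had peaks in the control library alone, and the strongest of each held 9 fragments at 4.87-fold. All of these single-library peaks lay low in their lists, the control ones at the 80.6th percentile.

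By role, promoter peaks in both libraries were found for both ATPase genes, all 7 core genes, all 4 PBAF genes and all 3 genes of the non-canonical complex. Of the 8 genes of the ATPase module, 7 had one in the control library and 6 after IFN-γ. Of the 7 genes of the canonical complex, 6 had one in each library, and 5 had an overlapping pair. Of the 4 subunits of post-mitotic neurons, 3 had one in each library, namely *DPF1*, *DPF3* and *SS18L1*.

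**Figure D1:**
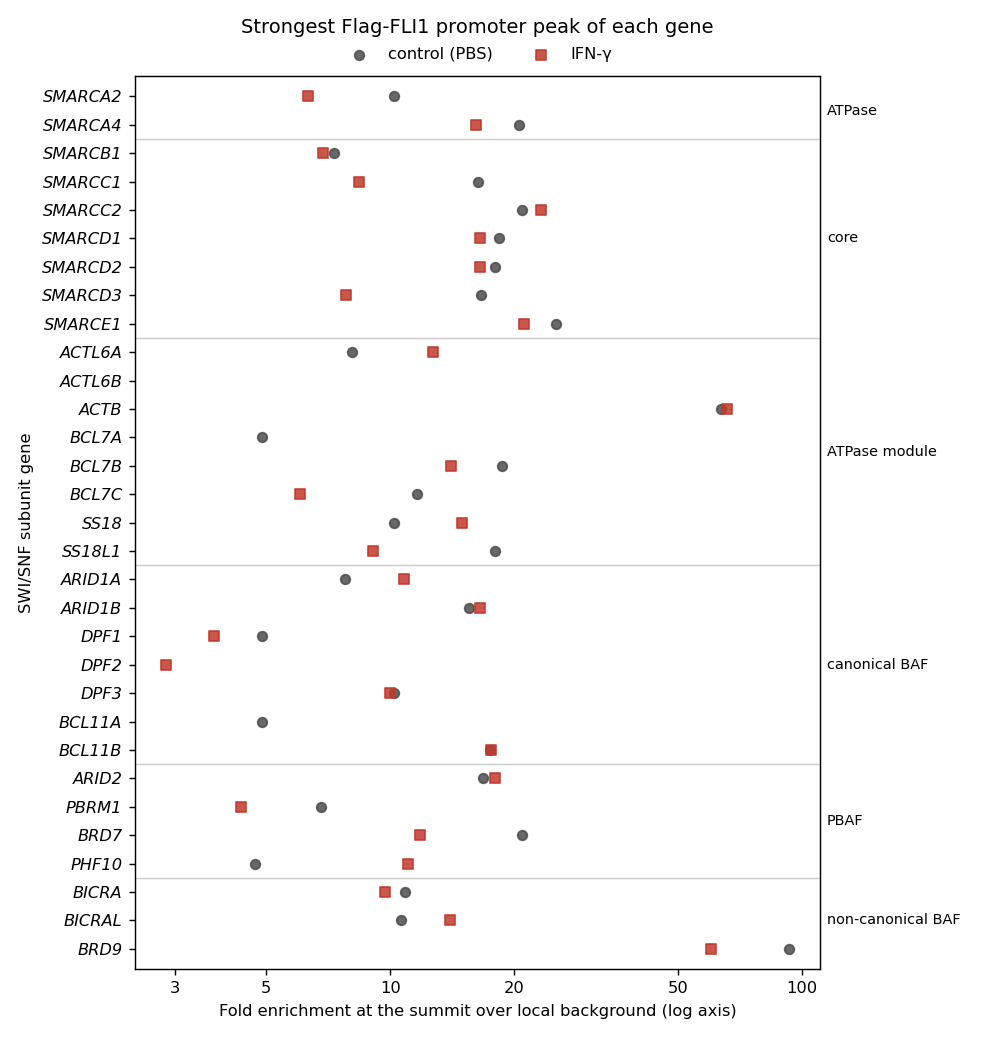
Fold enrichment (log axis) of the strongest promoter peak of each SWI/SNF subunit gene in the control and IFN-γ libraries, 1 library each, grouped by role. BRD9 (93.2 and 60.4) and ACTB (63.8 and 66.0) stand apart, and ACTL6B has no point.

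By median rank, the strongest promoter peaks of the subunit genes stood somewhat higher than those of other genes, and 2 genes stood far above the rest. Peaks were ranked within each list by −log10 p. The median rank of the subunit genes was at the 14.6th percentile of the control list, beside 24.7 for all coding genes with a promoter peak, and at 20.3 of the IFN-γ list, beside 28.8. Of the 29 genes in the control library, 9 had a peak in the top 10% of the list (beside 24.8% of coding genes). Of the 28 in the IFN-γ library, 6 did (21.4%, beside 23.0%). Median fold enrichment was 15.6 for the subunit genes and 10.5 for coding genes in the control library, and 12.3 and 9.12 in the IFN-γ library. With a single library per condition and overlapping ranges, these medians are descriptions. The strongest peak was taken over all start sites of a gene, of which the subunit genes have more. The part of this in the ranks was not tested.

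**Figure D2:**
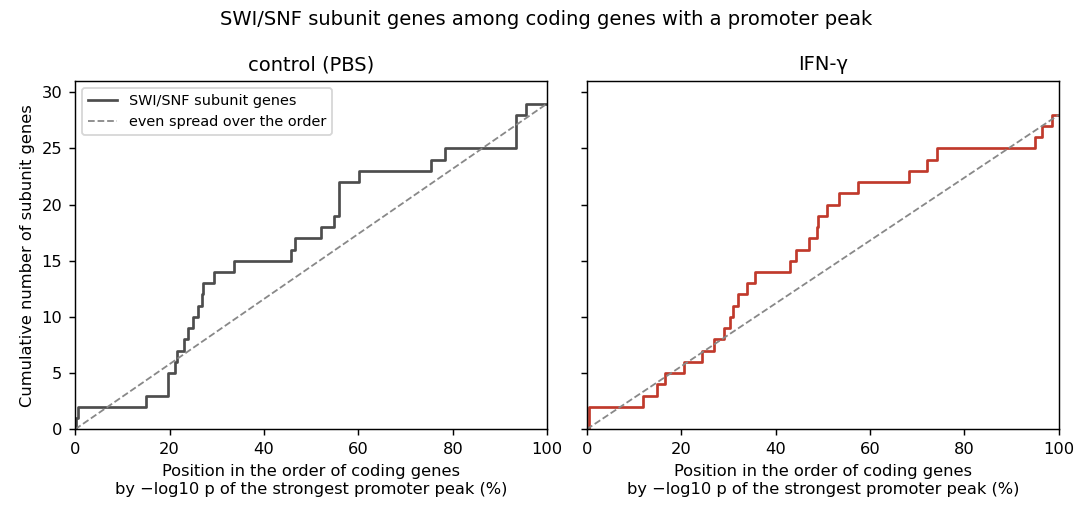
Cumulative number of SWI/SNF subunit genes along the order of coding genes, from the strongest promoter peak at 0% to the weakest at 100%, in the control library (29 subunit genes of 12407 coding genes) and the IFN-γ library (28 of 11967). The dashed line is an even spread. The curves step up at the start with BRD9 and ACTB, and lie above the dashed line over most of the middle of the order.

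*BRD9*, the bromodomain subunit of the non-canonical complex, had the strongest peak of the 31 genes in the control library. Its peak there (chr5:891930-893390) held 256 fragments at 93.2-fold enrichment and ranked 16 of 30819. The IFN-γ peak held 265 fragments at 60.4-fold and ranked 64 of 39654. Among coding genes *BRD9* was 19th and 60th by promoter peak. The control summit lay in exon 1 of the MANE Select transcript, 12 bp from its start, and the octamer shown above was centred at -36.5 bp from it, on the upstream side. The promoter is shared with *TRIP13*, a gene of the spindle checkpoint on the opposite strand, whose start site lay 95 bp from the summit, so the peak cannot be given to either gene.

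*ACTB*, which encodes the β-actin that SWI/SNF shares with the cytoskeleton, had the next strongest, and by −log10 p the strongest of the 31 genes in the IFN-γ library. In the control library its peak (chr7:5529112-5530992) held 191 fragments at 63.8-fold and ranked 60. The IFN-γ peak held 257 fragments at 66.0-fold and ranked 63. The summits lay in intron 1, 888 and 870 bp from the MANE Select start, with an octamer centred at -5.5 bp from the control summit. *ACTB* also had the most promoter peaks among the genes of its module, 5 in the control library and 4 after IFN-γ.

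The ATPase genes were *SMARCA4* (BRG1) and *SMARCA2* (BRM), which fill the same position in alternative complexes. *SMARCA4* had 47 fragments at 20.5-fold in the control library and 40 fragments at 16.2-fold in the IFN-γ library. *SMARCA2* had 20 fragments at 10.2-fold and 21 fragments at 6.32-fold. The *SMARCA4* peak was thus the higher in both libraries. The *SMARCA2* summits lay in intron 1, 1703 and 1563 bp from the MANE Select start but 37 and 177 bp from another annotated start site.

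Among the core genes, *SMARCE1*, an HMG-domain subunit, had the strongest peak in the control library, with 51 fragments at 25.3-fold and 71 fragments at 21.2-fold in the IFN-γ library. *SMARCC2* and *SMARCC1* encode paired scaffold subunits. *SMARCC2* had 42 fragments at 20.9-fold in the control library and 88 at 23.2-fold in the IFN-γ library, while *SMARCC1* had 41 at 16.3-fold and 40 at 8.38-fold. The scaffold genes therefore held nearly equal numbers of fragments in the control library and unequal ones in the IFN-γ library.

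The 3 SMARCD genes encode alternative subunits that link the complex to transcription factors. *SMARCD1* had 37 fragments at 18.3-fold and 68 at 16.5-fold. *SMARCD2* had 53 at 17.9-fold and 50 at 16.5-fold. *SMARCD3* had 36 at 16.7-fold and 29 at 7.83-fold, and its strongest summits lay 28515 and 28557 bp upstream of the MANE Select start, within 243 bp of a distal start site. *SMARCB1*, the subunit that contacts the nucleosome face and is lost in rhabdoid tumours, had the weakest core peak, with 14 fragments at 7.30-fold and 17 at 6.86-fold.

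In the ATPase module, *ACTL6A* is the actin-related subunit of dividing cells and the counterpart of *ACTL6B*. *ACTL6A* had 29 fragments at 8.07-fold in the control library and 56 at 12.7-fold in the IFN-γ library, where *ACTL6B* had no promoter peak. The BCL7 proteins are small subunits tied to the ATPase. *BCL7B* had 43 fragments at 18.7-fold and 49 at 14.1-fold, and *BCL7C* had 27 at 11.6-fold and 26 at 6.02-fold. *SS18*, the gene fused in synovial sarcoma, had 20 fragments at 10.2-fold and 37 at 15.0-fold. Its neuronal paralogue *SS18L1* had 43 at 17.95-fold and 32 at 9.09-fold.

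*ARID1A* and *ARID1B* encode the alternative large scaffold subunits of canonical BAF. *ARID1A* had 25 fragments at 7.77-fold in the control library and 29 at 10.8-fold in the IFN-γ library, at a site 3566 and 3481 bp upstream of its MANE Select start. *ARID1B* had 4 promoter peaks in the control library and 6 after IFN-γ, and the strongest differed between them. In the control library it lay in intron 1 (chr6:156777859-156779882, 31 fragments at 15.6-fold). Its counterpart after IFN-γ lay near an alternative start site in intron 4 (chr6:157020891-157021779, 41 fragments at 16.6-fold). Both of these sites had a peak in both libraries. An IFN-γ peak of 12 fragments at chr6:156781805-156782438 overlapped none of the control promoter peaks.

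The DPF genes encode PHD-finger subunits that read modified histone tails. *DPF1* had 9 fragments at 4.87-fold and 12 at 3.74-fold, near the bottom of both lists. *DPF3* had 20 at 10.2-fold and 26 at 9.96-fold, on a repeat described below. *BCL11B*, a zinc-finger factor that joins canonical BAF, had 40 at 17.5-fold and 54 at 17.6-fold, at a site 2389 and 2428 bp upstream of its start, whereas its paralogue *BCL11A* had only the 9-fragment control peak.

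Of the PBAF genes, *ARID2* encodes the scaffold that takes the place of *ARID1A*, *PBRM1* a subunit with several bromodomains, *BRD7* a bromodomain subunit and *PHF10* a PHD-finger subunit. *ARID2* had 44 fragments at 16.8-fold in the control library and 87 at 17.98-fold in the IFN-γ library. *BRD7* had 43 at 20.9-fold and 34 at 11.8-fold, and *PBRM1* had 14 at 6.77-fold and 10 at 4.34-fold. *PHF10* had 9 fragments at 4.70-fold in exon 1 in the control library. Its strongest IFN-γ peak, of 34 fragments at 11.1-fold, was another site in intron 1, 1665 bp from the MANE Select start. That peak overlapped none of the control promoter peaks. The lowest PBAF peak was that of *PHF10* in the control library and that of *PBRM1* in the IFN-γ library.

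The remaining genes of the non-canonical complex are *BICRA* and *BICRAL*, paralogues whose products define it. *BICRA* had 28 fragments at 10.8-fold in the control library and 32 at 9.71-fold in the IFN-γ library. *BICRAL* had 23 at 10.6-fold and 42 at 14.0-fold. The fold enrichment of *BRD9* was several times that of either gene in both libraries.

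Summits lay close to start sites. The median distance from the summit of the strongest promoter peak to the nearest TSS of the gene was 62 bp in the control library, beside 114 bp for all coding genes, and 81.5 bp in the IFN-γ library, beside 147 bp. The greater number of annotated start sites of the subunit genes shortens this distance, and its part in the difference was not tested. Within 100 bp of a start site were 15 of 29 control summits (51.7%, beside 47.4% of coding genes) and 15 of 28 IFN-γ summits (53.6%, beside 42.6%). *BCL11B* and *ARID2* in both libraries, and *PHF10* in the IFN-γ library, had summits over 1 kb from any start site of the gene itself. The DNA within 100 bp of the summits was rich in G and C, with a median of 73.6% in the control library (68.2% for coding genes) and 69.7% in the IFN-γ library (64.7%).

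**Figure D3:**
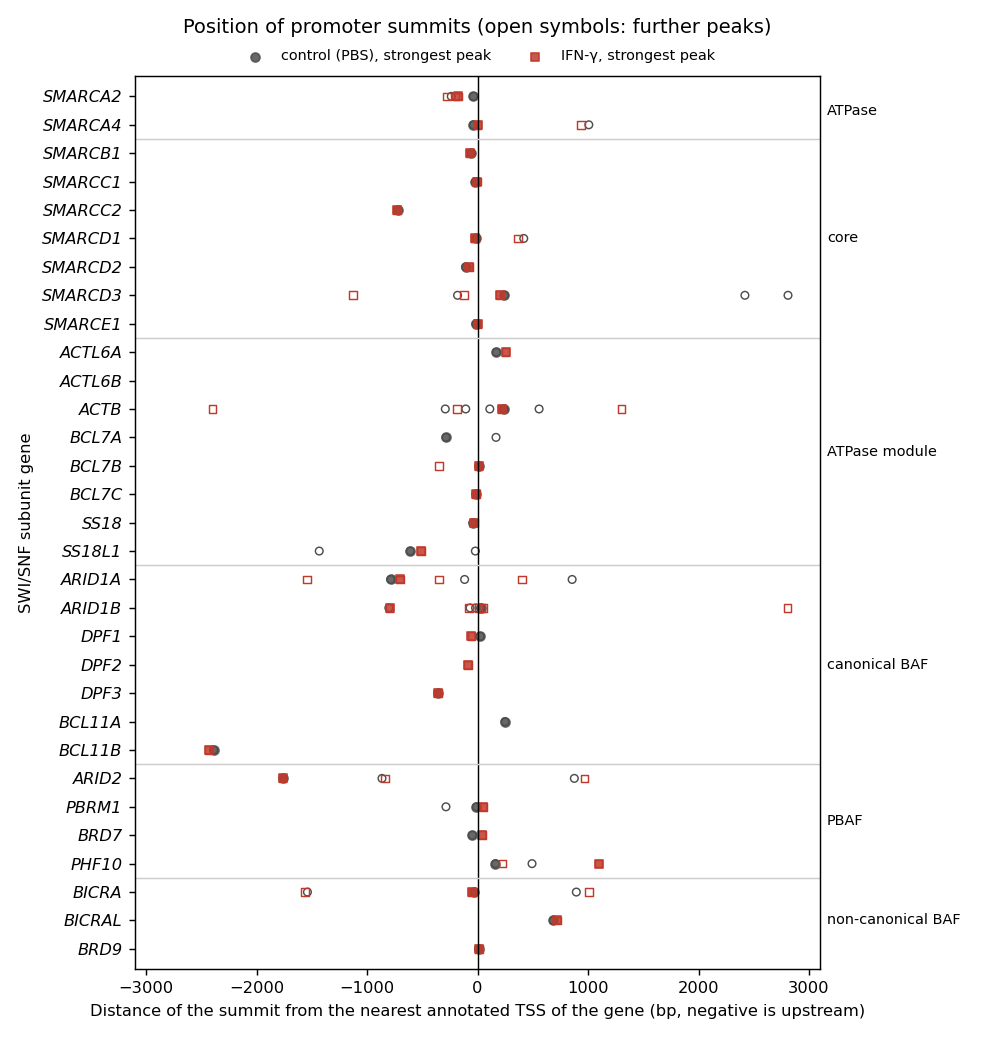
Distance in bp of every promoter summit of the SWI/SNF subunit genes from the nearest annotated TSS of the gene (negative is upstream), for the control and IFN-γ libraries. Filled symbols are the strongest peak of each gene and open symbols further peaks, and most filled symbols lie close to 0, with BCL11B and ARID2 far upstream.

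Some of these promoter peaks sat nearer to another gene. The control summit of 12 subunit genes lay within 1 kb of a start site of another gene, and for 4 of them that start site was the nearer one. Neighbouring start sites were counted for the subunit genes only, so whether these counts differ from those of other coding genes was not tested. At *SMARCC2* the summit was 5 bp from the start of a long non-coding RNA (ENSG00000258199) and 722 bp from *SMARCC2*. At *ARID1A* it was 137 bp from the start of the non-coding ENSG00000290006, and at *ARID2* it was 88 bp from *LINC00938*. At *SS18L1* it was 234 bp from *PSMA7*, a proteasome subunit gene on the opposite strand, and 609 bp from *SS18L1*. Besides *PSMA7* and *TRIP13*, the coding gene *GNL3* started on the opposite strand 412 bp from the *PBRM1* summit. A peak at such a site cannot be given to the subunit gene alone.

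The FLI1 octamer was found at few of the subunit promoters. It was searched on both strands as CAGGAAGT and CCGGAAGT, which cannot both match at the same position, within 100 bp of the strongest summit. In the control library it was present at 3 of 29 genes (10.3%), *ACTB*, *BCL11B* and *BRD9*, beside 16.9% of coding genes with a promoter peak. In the IFN-γ library it was present at 2 of 28 (7.14%), *ACTB* and *BRD9*, beside 19.7%. The strongest peaks of the 31 genes were thus among the few with an octamer. The core GGAA, which any octamer also holds, was present at 27 of 29 control summits (93.1%) and 27 of 28 IFN-γ summits (96.4%), beside 94.8% and 97.4% of coding genes. The related octamer ACCGGAAG, which overlaps CCGGAAGT by 7 letters, stood at *SMARCC2*, *ACTL6A*, *ARID2* and *BRD7* in each library (13.8% and 14.3%, beside 6.72% and 7.31%). Of the subunit genes, 26 were found in a RefSeq table of promoters that run from 250 bases before to 50 after the gene start. The octamer was in a promoter of 1 of these genes, *BRD9* (3.85%), beside 10.8% of 15345 coding genes.

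*DPF3* was the only subunit gene whose strongest promoter peak lay on a run of at least 4 GGAA units, in both libraries (3.45% and 3.57%, beside 0.935% and 2.27% of coding genes). Its summit in intron 1 lay within a run of 20 units. A gene-body peak in intron 4 of *ARID1B* lay beside a run of 12 units. Both repeats are shown because they differ from the promoters above in being built almost wholly of the core, and both were chosen after their values were seen. Capitals mark GGAA or TTCC, and the windows of 151 bp are centred on the control summits, at *DPF3* chr14:72892929-72893079 (minus strand) and *ARID1B* chr6:157039546-157039696 (plus strand).
DPF3: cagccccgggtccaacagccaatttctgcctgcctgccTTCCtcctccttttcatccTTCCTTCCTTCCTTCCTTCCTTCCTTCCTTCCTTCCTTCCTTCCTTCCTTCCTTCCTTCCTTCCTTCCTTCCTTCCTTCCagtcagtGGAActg
ARID1B: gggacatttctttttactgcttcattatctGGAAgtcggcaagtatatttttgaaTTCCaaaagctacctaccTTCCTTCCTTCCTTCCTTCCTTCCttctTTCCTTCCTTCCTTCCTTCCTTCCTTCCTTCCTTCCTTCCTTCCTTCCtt

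The comparison of the libraries asks whether FLI1 was more or less enriched at these promoters after IFN-γ. For the 27 genes with an overlapping pair, the IFN-γ pileup was divided by the control pileup and by the depth ratio. No subunit gene reached a ratio 1.5-fold above 1 (0 of 27, beside 7.51% of the 10993 coding genes with a pair). A ratio at least 1.5-fold lower was found for 7 (25.9%, beside 23.5%). The median ratio was 0.834, and that of coding genes was 0.859. The exact 95% interval of the subunit median, 0.670 to 1.17, reflects the spread between the 27 genes, which are not replicates. The ratio was under 1 for 19 of 27 subunit genes (70.4%) and for 66.7% of coding genes. The subunit genes therefore lay near the background in the share that was lower. A promoter peak found in 1 library only has no ratio and could not enter these counts. In the IFN-γ library such peaks included one of *PHF10* (34 fragments at 11.1-fold) and one of *SMARCD1* (30 at 9.79-fold). In the control library they included one of *ACTB* (17 at 7.59-fold).

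The 7 genes with the lower ratios were *PBRM1* (0.491), *SS18L1* (0.511), *BRD7* (0.543), *SMARCD3* (0.553), *SMARCA4* (0.585), *SMARCD2* (0.648) and *BCL7C* (0.661). Their exact 95% intervals, which cover counting error only, left out 1 for 5 of them, a count not made for coding genes. These were *SS18L1* (0.313 to 0.827), *BRD7* (0.336 to 0.872), *SMARCD3* (0.327 to 0.928), *SMARCA4* (0.374 to 0.911) and *SMARCD2* (0.431 to 0.972). *PBRM1* rested on 14 and 10 fragments, and its interval ran from 0.195 to 1.19. *BRD9*, with the most fragments, had a ratio of 0.711 (0.596 to 0.848). *ACTB*, with nearly as many, had 0.924 (0.763 to 1.12), an interval that includes 1. At the other end were *SMARCC2* with 1.44 (0.986 to 2.13), *ARID2* with 1.36 (0.935 to 2.00) and *ACTL6A* with 1.33 (0.833 to 2.15). The remaining genes lay between 0.670 (*SMARCC1*) and 1.28 (*PHF10*, for a pair of 7 and 13 fragments that was not its strongest peak in either library).

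Against the coding median instead of 1, the intervals of 4 genes left it out, *SMARCC2* and *ARID2* above it and *SS18L1* and *BRD9* below it. All 4 summits lay within 1 kb of a start site of another gene, which was the nearer one except at *BRD9*. These 4 ratios therefore cannot be given to the subunit genes alone. A second overlapping pair of *ARID2*, 865 and 839 bp upstream of its own start, held 35 control and 49 IFN-γ fragments. No ratio was computed for that pair. Scaling all ratios so that the coding median was 1 left 4 genes at least 1.5-fold lower, namely *PBRM1*, *SS18L1*, *BRD7* and *SMARCD3*. The same scaling put *SMARCC2* (1.68), *ARID2* (1.58) and *ACTL6A* (1.54) at least 1.5-fold higher. With the ratio of fold enrichments, *SMARCA4* (0.788) and *SMARCD2* (0.920) were no longer 1.5-fold lower, and *SMARCA2* (0.619), *SMARCC1* (0.513) and *BRD9* (0.648) were, which made 8 genes, beside 31.4% of coding genes. *PBRM1*, *SS18L1*, *BRD7*, *SMARCD3* and *BCL7C* were 1.5-fold lower in both measures. Which genes passed 1.5-fold therefore depended on the scaling and the measure. Of the 27 control summits, 13 held fewer than 30 fragments, and the intervals of only 6 genes, all below 1, left out 1. Intervals that left out 1 or the coding median were not counted over coding genes, so these counts have no background beside them.

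**Figure D4:**
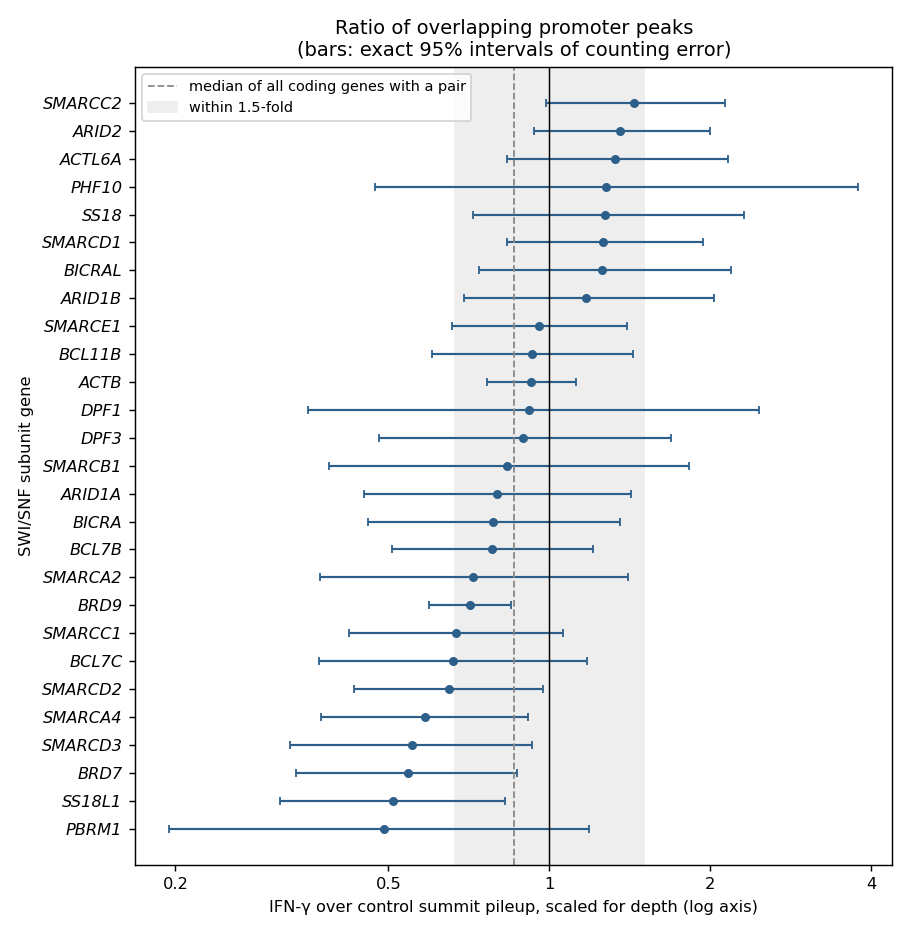
Depth-scaled ratio of IFN-γ over control summit pileup (log axis) for the 27 SWI/SNF subunit genes with overlapping promoter peaks, in order of the ratio. Bars are exact 95% intervals of counting error, the solid line is 1, the dashed line is the coding median of 0.859 and the shaded band is within 1.5-fold. The bars of 6 genes lie wholly below 1, and no bar lies wholly above 1. The same counts were not made for coding genes.

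Gene-body peaks were found for 10 of the 31 genes in the control library (32.3%, beside 19.1% of coding genes) and for 10 in the IFN-γ library (32.3%, beside 25.4%). The subunit genes are longer than other genes, with a median of 51.1 kb against 27.5 kb, which leaves more room for such peaks, and the part of length was not tested. There were 16 gene-body peaks in the control library and 20 after IFN-γ, in 12 genes, and 14 in each library overlapped a peak of the other. In each library 7 lay within 3 kb of a start site of another gene.

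The highest gene-body peaks lay at such neighbouring start sites. A control peak of 66.1-fold and 169 fragments at the end of *SS18L1* had its summit 1 bp from a start site of *MTG2*, a mitochondrial GTPase gene. Peaks of 59.1-fold in the control library and 58.3-fold in the IFN-γ library in *BCL7C* lay 12 and 18 bp from a start site of *MIR762HG*. A control peak of 33.9-fold within the annotated span of *ACTB* lay 253 bp from the start of the non-coding ENSG00000272719.

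Of the peaks with no neighbouring start site within 3 kb, the highest by fold enrichment was in intron 4 of *ARID1A* (chr1:26744073-26744525), with 67 fragments at 33.1-fold in the control library and 87 at 25.3-fold in the IFN-γ library. By −log10 p it was above every promoter peak of *ARID1A* in both libraries. A peak upstream of the MANE Select start of *ACTB*, at -18680 bp and within the span of longer annotated transcripts, held 62 fragments at 18.8-fold in the control library and 151 at 24.1-fold in the IFN-γ library, where its −log10 p of 159 was above the 101 of the *ARID1A* peak. The intron 4 peak of *ARID1B*, on the repeat shown above, held 18 fragments at 9.25-fold and 54 at 19.9-fold.

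Repeats of the core lay at 3 gene-body peaks in each library. Besides *ARID1B* these were intron 19 of *SMARCC1*, with a run of 13 units and 22 fragments at 10.1-fold in the control library and 33 at 11.2-fold in the IFN-γ library, and a site past the MANE Select end of *SMARCA4*. That site had a run of 5 units near the control summit and 6 near the IFN-γ summit, with 15 fragments at 7.79-fold and 26 at 6.45-fold. *DPF3* had 1 gene-body peak in the control library and 4 after IFN-γ, of which the highest (chr14:72638006-72638404) held 38 fragments at 12.5-fold in intron 8. The 3 that had no control counterpart held between 15 and 38 fragments. *SMARCD3* and *BRD7* had gene-body peaks in the IFN-γ library alone, of 26 and 15 fragments, and *BRD9* had one of 10 fragments in the control library alone.

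**Figure D5:**
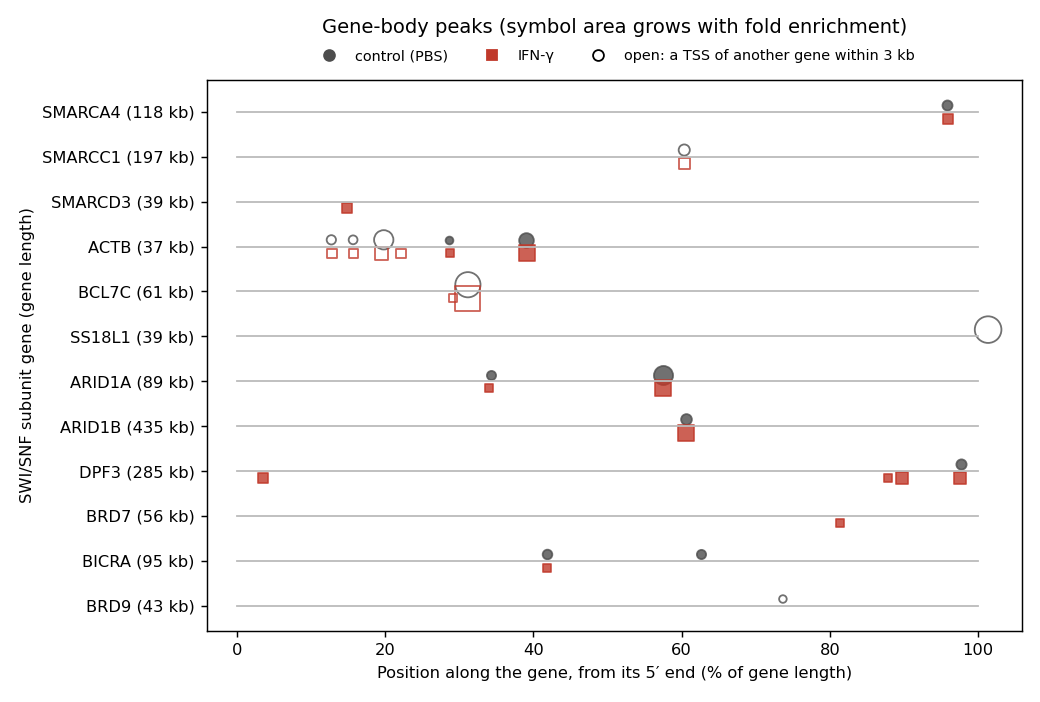
Gene-body peaks of the 12 SWI/SNF subunit genes that had any, by the position of the summit along the gene (% of gene length from the 5′ end), in the control and IFN-γ libraries. Symbol area grows with fold enrichment and open symbols lie within 3 kb of a start site of another gene. The largest symbols, at BCL7C and at the end of SS18L1, are open, and the SS18L1 summit lies just past the gene's end.

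Other remodeller families were bound at their promoters about as often. Of 13 genes of ISWI complexes, which space nucleosomes, 12 had a promoter peak in each library. Of 19 genes of the CHD family and of NuRD, a complex that joins remodelling to histone deacetylation, 18 had one in the control library and 17 after IFN-γ. Of 21 genes of the INO80 family of complexes, which exchange histone variants, 19 had one in each. That list is called INO80 and SRCAP below, and it also holds *EP400*. The genes with none in either library were *CECR2*, *CHD5* and *ACTR8*. The most significant control peaks of these lists were those of *CHRAC1* (26.7-fold), *GATAD2A* (23.1-fold) and *EP400* (42.8-fold), all lower than those of *BRD9* and *ACTB*. The median depth-scaled ratio was 0.801 for ISWI, 0.645 for CHD and NuRD and 0.903 for INO80 and SRCAP, so the SWI/SNF median of 0.834 lay among them.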

How the data were processed

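Peak lists of 2 Flag-FLI1 ChIP libraries of HK1 cells were used, 1 per condition. According to the methods and the submitters' processing notes, the authors used Cutadapt 1.18 for trimming, Bowtie2 2.3.4.1 for alignment to GRCh38 and picard for duplicate removal. Peaks of each library were then called by the authors with MACS2 2.1.2 at a stated p-value cutoff of 0.01. The lists themselves stop higher, at a −log10 p of 3.52 (control) and 3.46 (IFN-γ) and a −log10 q of 1.30 and 1.32. Whether the input was used in calling is not given in the sources used here. The deposited lists give the fold enrichment at each summit, a ratio over local background computed by the authors. They also give the authors' −log10 p and −log10 q (p-value and q-value). The deposited score restates −log10 q and was not used.

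MACS computes fold enrichment as pileup plus 1 over background plus 1, and p from a Poisson distribution. Whole-number pileups were solved from both with a largest relative error of 6.21e-06, and were divided by the ratio of the lowest backgrounds (1.06 and 1.54 fragments). Of each gene's overlapping pairs, the one with the highest summed pileup was used. Genes, exons and TSSs were taken from GENCODE 44, and promoter sequences from RefSeq. Exact binomial intervals of single-gene ratios have a confidence level of 95% and cover counting error only. Intervals of medians, at the same level, were taken from the ordered values of the genes and reflect the spread between genes. With 1 library per condition no test was run. All 31 genes are named. Of other remodeller lists, genes with no promoter peak and those with the most significant peak are named. The genes and lists were chosen with earlier results of these data known. Recovery of pileups, pairs and motifs was tested on simulated data, with 100% of known answers returned, and 98.1% of 1000 simulated intervals held the true ratio. Alternatives were other windows, start sites, cutoffs, overlaps, scalings, rankings and motifs. Scripts ran in Python 3.11.15, with matplotlib 3.10.9 for figures, pysam 0.24.0 for sequence access, and pandas 2.3.3, scipy 1.17.1 and numpy 2.4.6 for calculation.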

Additional observations from a re-analysis of the deposited data

How the results depend on the processing

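No paired analysis was possible because there was only 1 control and 1 IFN-γ library, and no test was run. Over the alternatives, promoter peaks were counted for 25 to 30 of the 31 SWI/SNF subunit genes in the control library, beside 56.9% to 68.6% of coding genes. In the IFN-γ library they were counted for 25 to 28, beside 53.2% to 68.7% of coding genes. The lowest counts came with q-values under 1e-05, and in the IFN-γ library also with lists of equal length. The number of genes at least 1.5-fold higher in the IFN-γ library, 0 as reported, was 3 with the coding promoter median set to 1 (beside 14.3% of coding genes) and 2, *ACTL6A* and *ARID1B*, with the ratio of fold enrichments (beside 9.95%). The number at least 1.5-fold lower, 7 as reported, was 4 with the coding median set to 1 (beside 12.2%). Genes with a motif near the summit in the control library, 3 as reported, numbered 1 with CCGGAAGT (beside 12.1% of coding genes) and 27 with the GGAA core (beside 94.8%). In the IFN-γ library they numbered 2 as reported and 1 with CCGGAAGT (beside 12.9% of coding genes). They numbered 4 there with ACCGGAAG (beside 7.31%) and 27 with the GGAA core (beside 97.4%). The shorter core occurs more often by its length. In 44 other comparisons, counts stayed within 1.5-fold of the reported ones and medians within their exact interval, which reflects the spread between genes. All 81 single-gene ratios stayed within the reported ratio's counting interval, but some crossed 1. With fold enrichments these were *ARID1A* (0.797 to 1.39), *SMARCD1* (1.26 to 0.902), *ACTB* (1.03) and *BCL11B* (1.00), with the pair at the strongest control peak *ARID1B* (1.17 to 0.731), and with the coding median set to 1 *SMARCE1*, *ACTB*, *DPF1*, *DPF3* and *BCL11B* (1.04 to 1.11). The intervals of all these genes held 1. Depth limits the lowest peaks, such as the strongest control peaks of *DPF1*, *BCL7A* and *BCL11A* (9 fragments each) and the control peak in the *PHF10* ratio (7 fragments).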

Other observations

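Genes that share the SMARC or ARID name but encode no SWI/SNF subunit were examined in the same way. Of 11 such genes, 10 had a promoter peak in each library (beside 61.9% and 59.7% of coding genes), and *ARID3C* had none in either. The most significant control peak was that of *ARID3B*, with 91 fragments at 43.4-fold in the control library and 126 at 32.9-fold in the IFN-γ library. In the IFN-γ library the most significant was that of *ARID5B*, a DNA-binding factor with an AT-rich interaction domain, with 179 fragments at 34.3-fold, against 44 at 16.8-fold in the control library. *ARID5B* had a depth-scaled ratio of 2.79 and was the only gene of this list past 1.5-fold in either direction. The median ratio of the list was 1.00, beside 0.834 for the subunit genes and 0.859 for all coding genes. *SMARCA1* and *SMARCA5*, the ISWI ATPases, were also counted in the ISWI list. They held 12 and 13 fragments in the control library, fewer than *SMARCA2* and *SMARCA4*.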
